A study of Danio rerio with 10 samples.

Results

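The Dome-type cells were the cells that the authors' annotation assigned to the cluster named Dome, which the study describes as unspecified cells of the dome stage. They were taken by that name from the cell metadata and numbered 1275 of 8226 cells. Zebrafish embryos of the AB/TL strain had been injected at the one-cell stage with 20 mM 4sUTP, a nucleotide that enters newly made RNA, and their cells were profiled by Drop-seq, a droplet method that counts unique molecular identifiers (UMIs), each a tag for 1 captured RNA molecule. After capture the RNA was treated with iodoacetamide (IAA, 10 mM), which turns the incorporated nucleotide into T-to-C changes in the reads. The fraction of a gene's molecules that carried label was thus measured in each cell, and labeled RNA was read as zygotic and unlabeled RNA as maternal. The study reports that fractions estimated in single cells often fell short of the true ones. Unlabeled RNA can therefore include some zygotic molecules and is not a count of maternal copies. All groups shared the injection and the conversion, and they differed in stage: 1 library came from dome embryos and carries the letter B, and the later stages, 30% and 50% epiboly, each gave a library A and a library B. The 5 libraries that were not converted were not analysed here.

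The blastoderm of the zebrafish at dome stage is a mound of cells on the yolk, in which the embryo's own genome has only just been switched on. Until then the cells run on RNA that the mother stored in the egg. During the maternal-to-zygotic transition this store is cleared while zygotic RNA accumulates, and during epiboly the cells spread over the yolk. As the transition unfolds, cells take up identities such as margin or ectoderm. The study counts the enveloping layer and the germ cells among the earliest types to be specified. Unspecified blastoderm cells have not yet taken such an identity and are known by what they retain and by what they have not yet begun to express.

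The embryos behind the libraries differed. Per the study's methods, the first replicate of epiboly embryos was freed of yolk by hand, and the second by buffer and shaking, as were the dome embryos. For the dome library the sources differ: its title says B, the names of its cells say A, and by the methods it was collected along with the first replicate. Each embryo had received one of a pair of mCherry RNAs that differ in their localization signal. Both were found in the dome library and in both replicate B epiboly libraries, whereas the NPL form had 7 UMIs in the other cells of 30% epiboly A, 8 in those of 50% epiboly A and 0 in the Dome-type cells of either. In fits with the replicate as a block, given where they change a call, the dome library was set with the B libraries, as its title has it, and these were dissociated in the same way. Nothing in the labels says whether replicates came from separate crosses, so p-values measure the spread between these libraries. In all, 26669551 UMIs of 20920 genes were counted, 5026185 of them in Dome-type cells. The Dome-type cells of single libraries held 4589216 UMIs (dome), 144704 (30% A), 196583 (30% B), 56912 (50% A) and 38770 (50% B). No Dome-type cell carried a barcode found in another library.

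Dome-type cells made up most of the dome library and a small part of each epiboly library. They were 1130 of 1855 cells at dome (60.9%, 95% exact Clopper-Pearson interval 58.7 to 63.1%). At 30% epiboly they were 59 of 2420 cells in replicate A (2.44%, 1.86 to 3.13%) and 46 of 632 in replicate B (7.28%, 5.38 to 9.59%). At 50% epiboly they were 23 of 3068 cells in replicate A (0.7497%, 0.476 to 1.123%) and 17 of 251 in replicate B (6.77%, 3.99 to 10.6%). These intervals cover counting error only, and within each epiboly stage those of the replicates did not overlap. The mean share was 4.86% ± 3.42 (SD, n = 2) at 30% and 3.76% ± 4.26 (SD, n = 2) at 50% epiboly, a difference within the spread between replicates (two-sided exact permutation test, p = 0.667, smallest possible p = 0.333). Within each letter the share was lower at 50% than at 30% epiboly. The direction of the mean turned when only cells of 2000 or more UMIs were counted, and also without 30% B or without 50% A, where the letters no longer balance. The share was higher in replicate B at both stages. Replicate, embryo number and way of dissociation changed together and cannot be told apart.

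The name was checked against marker genes. The study chose its root cells partly by a maternal module, of which it names some genes as examples. These examples are cldnd and cldng (tight junction claudins), ccna1 (a germline cyclin) and cth1 (a zinc finger protein). All 4 were higher in Dome-type than in other cells in each of the 5 libraries. For cth1 in 50% B the values were close, at 77.4 against 73.3 CPM, from only 3 UMIs in Dome-type cells. The rest of the module was not examined. The list of these genes is not independent of these cells. The clusters themselves were drawn from total counts, so differences in total level are given here as a description, without a test. Over the 10123 genes with 50 or more UMIs, 9.24% were higher in Dome-type cells in every library and 11.2% were lower in every library. The median log2 ratio of CPM plus 1 (CPM, counts of a gene per 1000000 counts) was -0.29. Many genes had no count in the small sums of Dome-type cells, and the part of this in the median was not tested. Against this background, 18 of 21 margin and mesendoderm genes were lower in every library, as were 12 of 15 enveloping layer genes, 7 of 11 genes of the apoptotic-like cells, 6 of 11 ectoderm genes, 3 of 7 germ cell genes and 1 of 3 yolk syncytial layer genes. None of these lists had a member higher in every library except the enveloping layer list, with cd9b, a tetraspanin. The yolk syncytial layer list summed to between 0 and 15.3 CPM in Dome-type cells and to between 32.4 and 65.6 CPM in other cells. Without the enveloping layer, germ, yolk syncytial and apoptotic-like cells among the other cells, the margin count stayed at 18 of 21, while the enveloping layer count was 2 of 15, the germ cell count 1 of 7 and the apoptotic-like count 2 of 11. Of 6 dissociation response genes, 4 were lower in every library.

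Dome-type cells had a larger share of unlabeled and a smaller share of labeled RNA. Their labeled fraction lay below that of their neighbors in the library in all 5 libraries. The labeled fraction was 11.5% against 17.0% at dome, 23.5% against 38.5% in 30% A and 15.8% against 33.2% in 30% B. It was 34.1% against 51.3% in 50% A and 18.5% against 36.0% in 50% B. The difference was smallest at dome, and it was at least 15.0 percentage points in each epiboly library. Its mean was -14.5 percentage points ± 5.16 (SD, n = 5; two-sided exact sign-flip test, p = 0.0625, the smallest that 5 libraries allow; 0.125 after Benjamini-Hochberg adjustment over the 12 sign-flip tests run). The clustering had not read base conversions, but genes that are only zygotic shape total counts too, so this measure is not fully independent of the annotation. The direction was the same at a fixed count per gene and cell: over gene-cell pairs with exactly 3 UMIs the mean difference was -12.3 percentage points, and all 5 libraries were lower in the Dome-type cells.

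**Figure D1:**
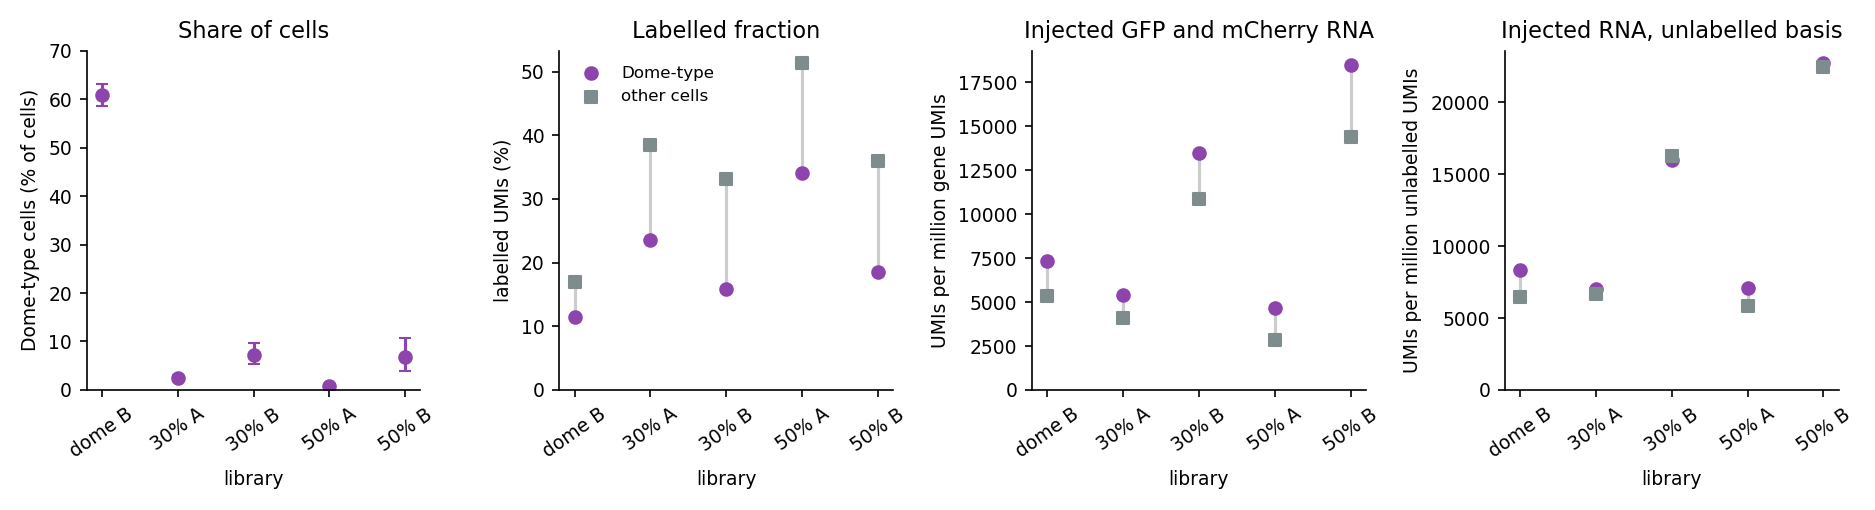
From left to right, the share of Dome-type cells in each library (95% exact intervals), the labeled fraction of UMIs, injected GFP and mCherry RNA in CPM of gene UMIs, and the same relative to unlabeled UMIs, for Dome-type cells (circles) and other cells (squares). Dome-type cells lie below the other cells in labeled fraction and above them in injected RNA in all 5 libraries, while on the unlabeled basis the points of 30% B and 50% B nearly coincide.

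Both parts of the RNA of a cell were compared. The mean number of unlabeled UMIs per cell (mean UMIs times the unlabeled fraction) was higher in Dome-type cells in every library, 3593 against 3254 at dome, 1876 against 1780 in 30% A, 3599 against 3108 in 30% B, 1630 against 1396 in 50% A and 1858 against 1418 in 50% B. This was a mean ratio of 1.16, or 0.21 ± 0.12 on the log2 scale (SD, n = 5). The fraction came from the better counted genes of each cell but was applied to all UMIs. Over pairs with exactly 3 UMIs the labeled fraction in 30% A was 20.3% against 30.5%, in place of 23.5% against 38.5%. With those values the order of unlabeled UMIs turns in 30% A and stays in each other library. The direction in 30% A thus depends on the fraction used. Labeled UMIs per cell were lower in every library, at 468 against 665, 577 against 1115, 675 against 1544, 844 against 1469 and 423 against 797 in the same order, a mean log2 ratio of -0.87 ± 0.25 (SD, n = 5). Each gave p = 0.0625 (two-sided exact sign-flip test; 0.125 adjusted), and both comparisons were added after the data were seen. The p-value of unlabeled UMIs holds only for the fraction used here, and other fractions were not tested. Total UMIs per cell did not differ in a common direction: the median in Dome-type cells minus that in other cells was 179 at dome, -714 in 30% A, -565.5 in 30% B, -114 in 50% A and 179.5 in 50% B (two-sided exact sign-flip test, p = 0.4375). With each cell thinned to 1000 UMIs, the median Dome-type cell held more genes in every library, 709 against 690, 700.5 against 663, 693 against 655, 677 against 620 and 654 against 612.5 (mean difference 38.6 ± 13.5 genes, SD, n = 5; two-sided exact sign-flip test, p = 0.0625; 0.125 adjusted). Thinning left out 12 Dome-type cells, 9 of them in 30% A. Unthinned, the median was 1708 against 1595 genes at dome, 1023 against 1233 in 30% A, 1695.5 against 1659.5 in 30% B, 1264 against 1116 in 50% A and 1164 against 998 in 50% B.

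RNA injected at the one-cell stage offered a measure that the clustering did not use, because the study removed the injected RNAs from its variable genes. This comparison, and those with the Unspecified (30) cluster, were added after the data were seen. GFP and both mCherry RNAs, made without label, are a copy of the maternal situation: they can only be diluted or degraded. Relative to gene UMIs they reached 7355 CPM in Dome-type against 5337 in other cells at dome, 5376 against 4087 in 30% A, 13485 against 10873 in 30% B, 4691 against 2836 in 50% A and 18519 against 14386 in 50% B. They were thus higher in Dome-type cells in all 5 libraries, by 1.24-fold to 1.65-fold (mean log2 ratio 0.45 ± 0.16, SD, n = 5; two-sided exact sign-flip test, p = 0.0625, the smallest possible; 0.125 adjusted). Divided by unlabeled UMIs in place of all UMIs, the ratio was 1.29 at dome, 1.06 in 30% A, 0.984 in 30% B, 1.22 in 50% A and 1.01 in 50% B (mean log2 ratio 0.15 ± 0.17, SD, n = 5; two-sided exact sign-flip test, p = 0.1875). GFP RNA alone, with 5 to 57 UMIs in the Dome-type cells of each epiboly library, was higher in 3 of 5 libraries (two-sided exact sign-flip test, p = 0.4375). In 50% B the embryos behind the Dome-type cells were not those behind the other cells in equal parts. Of cells with 10 or more mCherry UMIs in 50% B, 14 of 16 Dome-type cells held mostly the SV40 form, against 91 of 189 other cells. In 30% B the counts were 14 of 46 and 210 of 488. At dome, where the shares were close, they were 303 of 862 and 158 of 438. The dose each embryo received was not measured, and its part in the difference was not tested. Cells with at least 20% of each mCherry form, as a droplet with cells of both kinds of embryo would give, were 15 of 862 Dome-type cells (1.74%) and 16 of 438 other cells (3.65%) at dome.

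Set beside the types with 20 or more cells, Dome-type cells had the lowest labeled fraction of 13 types in 30% A, 9 in 30% B, 12 in 50% A and 5 in 50% B, where they themselves numbered only 17. At dome they were number 4 of 11 from below, above the 30 cells of the Cell Cycle Dome cluster (2.42%), the germ cells (7.53%) and the yolk syncytial cells (10.5%). Neither the Cell Cycle Dome cluster nor the germ cells had 20 cells in any epiboly library, so they were not ranked there. The yolk syncytial cells were not ranked in 30% B and 50% B. No test was made against the Cell Cycle Dome cluster. Another cluster of unspecified cells, Unspecified (30), named for 30% epiboly, stood at 21.6% at dome, 32.7% in 30% A, 26.3% in 30% B and 36.7% in 50% A. Dome-type cells were lower than this cluster in all 4 of these libraries, by 8.10 percentage points on average (SD 3.71, n = 4), and higher in injected RNA in all 4 (mean log2 ratio 0.23, SD 0.17; each two-sided exact sign-flip p = 0.125, the smallest that 4 libraries allow). In 50% A the labeled fractions of these clusters, 34.1% and 36.7%, were close. High injected RNA was not particular to Dome-type cells. They ranked number 1 among the types in 30% A, 50% A and 50% B. At dome they were number 2, at 7355 CPM against 7428 in the enveloping layer. In 30% B they were number 3, at 13485 CPM, below the apoptotic-like cells (15529) and the enveloping layer (14601).

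The genes highest in Dome-type cells were mostly unlabeled RNAs, read here as maternal. By mean log2 ratio these were btg4, which in mouse oocytes recruits the deadenylation machinery to maternal RNA, cldng, CR790368.1, fam49a, chp2, ENSDARG00000035680, mid1ip1l, a maternal-effect gene of cytoskeletal organization, snapin, trappc4, si.dkey.256h2.1, cntd2 and mfsd4aa. Their mean log2 ratios lay between 1.51 and 2.09. Over all cells at most 21.5% of their molecules carried label, and for btg4, chp2 and si.dkey.256h2.1 the fraction was 0. At dome btg4 was at 55.4 CPM in Dome-type cells and 40.8 CPM in other cells. In Dome-type cells of the epiboly libraries it was at 55.3, 45.8, 105 and 25.8 CPM (30% A, 30% B, 50% A, 50% B) from only 8, 9, 6 and 1 UMIs, and in other cells at 10.1, 14.7, 7.68 and 3.86 CPM. The other cells were lower at epiboly than at dome, and the Dome-type values lay on both sides of the dome value. The better counted cldnd behaved alike: Dome-type cells held 836 CPM at dome, then 1071, 656, 650 and 748 CPM, and other cells 580 CPM at dome, then 315, 208, 157 and 291 CPM. For h1m, the maternal linker histone, Dome-type cells stood at 1628, 1638, 1577, 1423 and 1780 CPM in the 5 libraries, and other cells at 1643, 914, 773, 425 and 1026 CPM. At dome the ratio of h1m was slightly below 1, so it was not higher in every library. Of the 9 oocyte and maternal regulators, the list that holds h1m, 3 were higher and 0 lower in every library. Beside them, 9.24% of all genes were higher and 11.2% lower. Not every maternal gene stayed near its dome level. In Dome-type cells ccna1 stood at 882.5, 940, 819, 650 and 464 CPM in the 5 libraries, and in other cells at 736, 399, 310, 210.5 and 181 CPM. Epiboly cells were named Dome by their total counts, so levels near those of dome are a description.

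The genes lowest in Dome-type cells were zygotic and marked cells that had taken an identity. They were dkk1b (a Wnt antagonist of the dorsal margin), ism1, sox32 (the endoderm regulator), mixl1 (a mesendoderm homeobox gene), fgf3, sox2 (a neural ectoderm regulator) and the enveloping layer genes krt5, krt4, krt18a.1, cldnb, cldne and si.ch211.125o16.4. Over all cells 82.4 to 97.7% of their molecules carried label. At dome dkk1b had 5 UMIs (1.09 CPM) in Dome-type cells and 102 UMIs (35.9 CPM) in other cells. It had 0 UMIs in the Dome-type cells of all 4 epiboly libraries, where a count of 0 allows up to 20.7, 15.3, 52.7 and 77.4 CPM (3 counts), against 70.09, 146, 91.5 and 252.8 CPM in other cells. For mixl1 the values were 19.8 against 175 CPM at dome, 27.6 against 226 CPM in 30% A and 5.09 against 293 CPM in 30% B, with 0 UMIs in both 50% epiboly sums of Dome-type cells. The keratins and claudins of this group depended, to differing degrees, on which other cells were compared. Without the enveloping layer and the 3 other set-aside types, the mean log2 ratio went from -5.12 to -0.59 for krt4, from -4.85 to -1.005 for cldne, from -5.66 to -1.37 for cldnb and from -4.82 to -0.09 for si.ch211.125o16.4, and each of these was lower in only 3 of 5 libraries. The mean log2 ratio of krt5 went from -5.66 to -2.75 and that of krt18a.1 from -5.005 to -2.05. Both stayed lower in 5 of 5 libraries. That of dkk1b was -6.56, of sox32 -5.45 and of mixl1 -5.16 in that comparison, lower in 5 of 5 libraries.

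**Figure D2:**
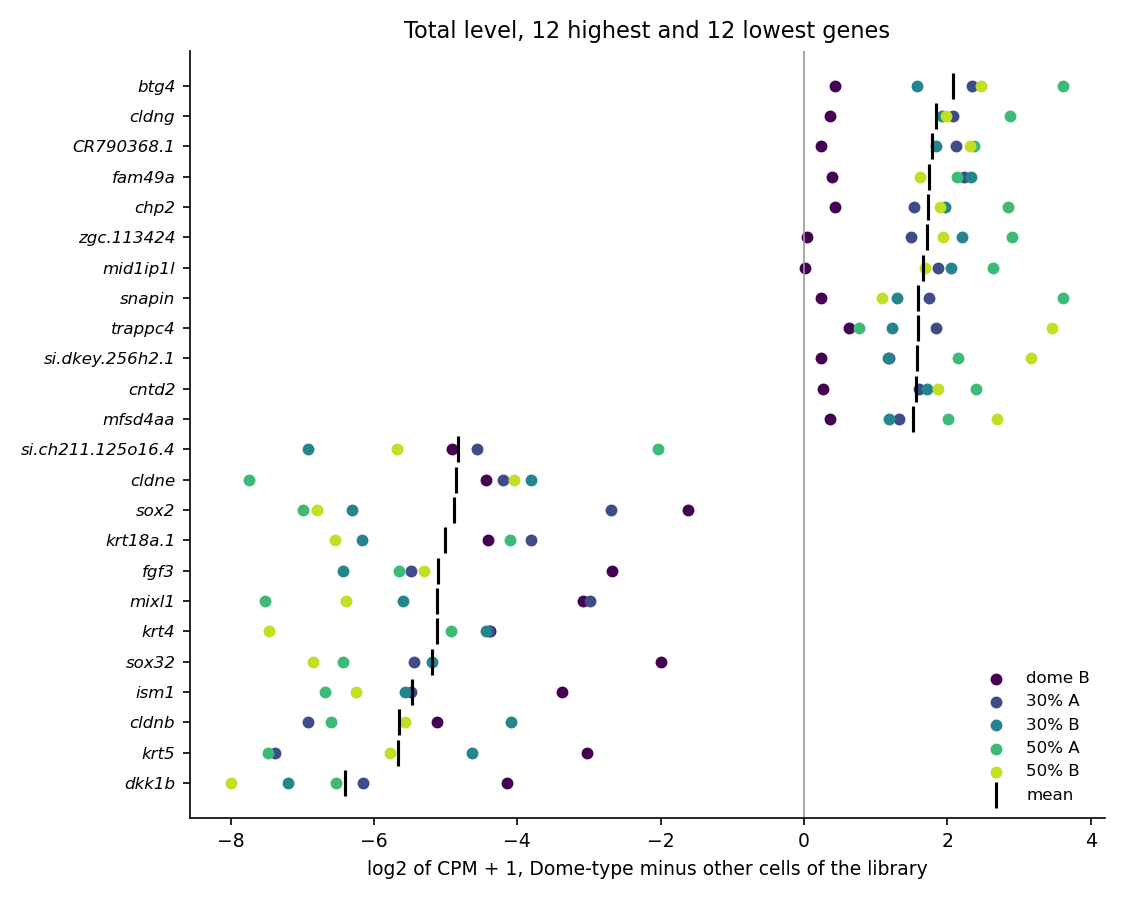
Log2 ratio of CPM plus 1 in Dome-type over other cells for the 12 highest and 12 lowest genes, 1 point per library and a bar at the mean. The dome library is nearest to 0 for all 12 highest genes, and ratios below -5 in the epiboly libraries often rest on 0 UMIs in Dome-type cells.

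Origin of the RNA and direction of the difference went together at the ends of the range. Genes were split by their labeled fraction over all cells. Of 2659 genes below 5%, 444 were higher in Dome-type cells in every library and 63 were lower. Of 1551 genes above 65%, 8 were higher in every library and 595 were lower. Of 3108 genes from 5% to 65%, 450 were higher in every library and 258 were lower. Genes higher in every library thus came about equally from this class and from below 5% (49.9% and 49.2% of those with a value). Over all genes with 50 or more UMIs, 9.24% were higher and 11.2% lower in every library. The median log2 ratio of the genes above 65% was -0.37 at dome, -0.81 in 30% A, -1.04 in 30% B, -1.44 in 50% A and -1.55 in 50% B. Genes below 5% had medians of 0.10, 0.40, 0.51, 0.32 and 0 in the same order. The median of the last library is held at 0 by genes with few counts in its 17 Dome-type cells. For the genes above 65%, the Dome-type sums of the epiboly libraries were far smaller than that of dome. A gene with no count in such a sum scores as lower. The part of this in the medians and in the 595 genes was not tested. As the labeled fraction of a gene and its total in the other cells rest on the same reads, these counts are a description.

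Not all zygotic genes were low. The list of blastula zygotic genes was not confined to broadly expressed genes, as it holds isg15, a marker by which the study annotated clusters. The mean log2 ratio of isg15 went from -2.29 to 0.62 without the enveloping layer, germ, yolk syncytial and apoptotic-like cells. Of the 16 members of the list, 10 were lower in every library and 1 was higher, beside 11.2% and 9.24% of all genes. The one that was higher was blf, a zinc finger gene, at 371 against 314 CPM at dome, 829 against 538 CPM in 30% A, 341 against 267 CPM in 30% B, 422 against 264 CPM in 50% A and 310 against 168 CPM in 50% B, with 92.5% of its molecules labeled. The ventral homeobox repressors differed from each other. For vox Dome-type cells stood at 242 against 217 CPM at dome, 601 against 522, 529 against 717, 580 against 399 and 1806 against 1752 CPM, a mixed direction. For ved they stood at 344 against 521 CPM at dome, 470 against 1299, 585 against 1588, 1019 against 1362 and 1599 against 2516 CPM, lower in every library. The group of maternal genome activators was split too. Their best known members are pou5f3 and nanog, which open the zygotic genome. Levels of nanog were higher in Dome-type cells in every library (1194 against 914 CPM at dome and 567 against 199 CPM in 50% B). Those of pou5f3 were nearly equal at dome (868 against 872 CPM) and lower in each epiboly library, most so in 50% B (877 against 1329 CPM). Of 30 cell cycle genes, 5 were higher in every library, among them ccna2 and ccne1. A further 8 were lower, among them ccnd1, the cyclin of the later, gapped cell cycle. Beside them, 9.24% of all genes were higher and 11.2% lower. Of the 3203 genes with 50 or more CPM, 719 were higher and 448 lower in every library, so the cell cycle counts are only a description.

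The labeled fraction of single genes was lower in Dome-type cells even where their total was not. In 475 genes with 30 or more UMIs behind the labeled fraction on both sides in 3 or more libraries, the median difference was -5.90 percentage points. A total of 94 genes (19.8%) were called lower and 1 (0.211%) higher (limma on the within-library differences, adjusted p under 5%), and 299 were lower in every library against 15 higher. The call depended on the 50% epiboly libraries: without 50% A or without 50% B no gene was called, with 205 and 195 genes at an unadjusted p under 5%, and the median difference was then -5.91 and -5.83 percentage points. Among 283 genes whose mean total differed by no more than 0.25 on the log2 scale, 261 (92.2%) were lower in labeled fraction, and the median difference was -6.13 percentage points. By library the median of those with a value (283, 279, 282, 150 and 114 genes in the order dome, 30% A, 30% B, 50% A and 50% B) was 4.87% in Dome-type against 7.85% in other cells at dome, 11.1% against 20.5% in 30% A, 6.75% against 16.1% in 30% B, 19.4% against 32.7% in 50% A and 5.20% against 14.5% in 50% B. At similar total level, the median share of labeled molecules was thus lower in Dome-type cells in each library.

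**Figure D3:**
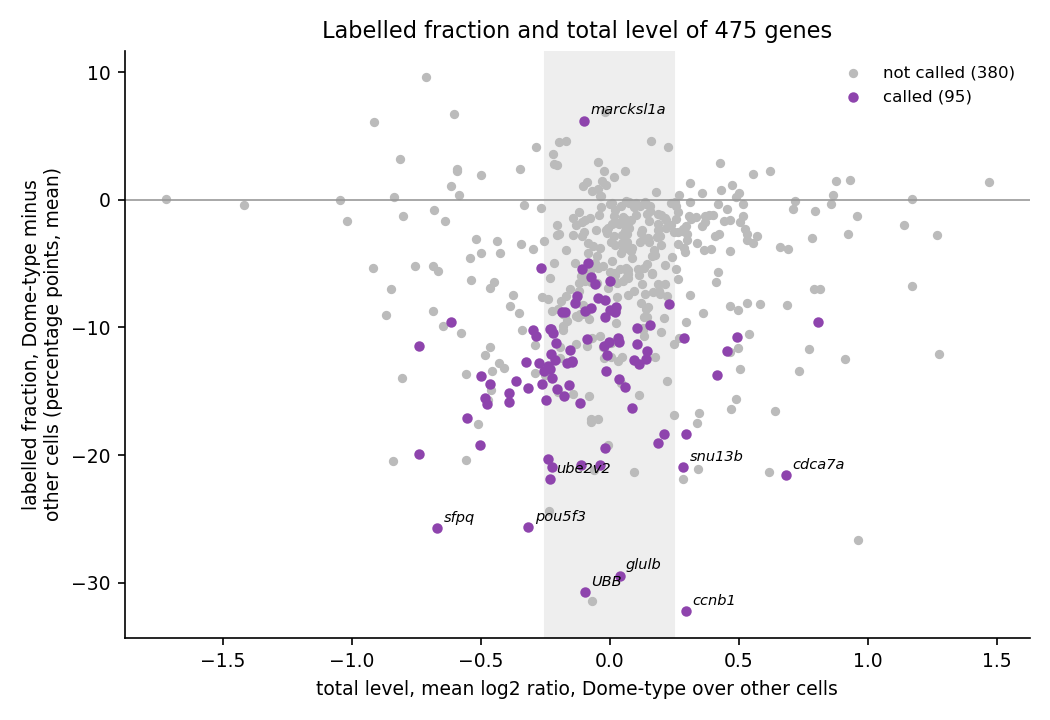
Each point is 1 of 475 genes, with its mean log2 ratio of total level (x axis) and its mean difference in labeled fraction in percentage points (y axis), Dome-type against other cells; called genes are purple and the band marks totals within 0.25. Most points lie below 0 whatever their total, and the named genes are the called ones with the largest differences.

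The largest differences among called genes were those of ccnb1 (a mitotic cyclin), UBB (ubiquitin, whose repeated copies make its counts uncertain), glulb (glutamine synthetase), sfpq (a splicing factor), pou5f3, ube2v2, cdca7a and snu13b. These means do not cover the same libraries. They rest on 3 libraries, with no 50% epiboly value, for sfpq and ube2v2. For ccnb1, UBB, glulb and pou5f3 they rest on 4, and for cdca7a and snu13b on 5. For ccnb1 the labeled fraction was 5.36% in Dome-type against 13.4% in other cells at dome, 13.4% against 51.1% in 30% A, 12.3% against 49.6% in 30% B and 24.8% against 70.6% in 50% A, a mean difference of -32.2 percentage points (SE 6.51, limma adjusted p = 0.0377). No value was taken for 50% B, where fewer than 30 UMIs lay behind the fraction in Dome-type cells. Split by origin, unlabeled ccnb1 stood at 678 CPM in Dome-type against 569 in other cells at dome, and at 820 against 385, 678 against 211 and 846 against 219 CPM in 30% A, 30% B and 50% A. Labeled ccnb1 was at 38.4 against 87.8 CPM at dome, and at 126 against 402, 95.03 against 208 and 279 against 526 CPM in the same libraries. Dome-type cells thus held more unlabeled and less labeled ccnb1 in each of the 4 libraries.

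For pou5f3 the labeled fraction was 15.5% against 29.5% at dome, 37.1% against 58.5% in 30% A, 15.4% against 50.1% in 30% B and 41.4% against 74.0% in 50% A (mean -25.7 percentage points, SE 3.94, limma adjusted p = 0.0224). Its unlabeled level was 733 against 615 CPM at dome, 656 against 535 CPM in 30% A, 710 against 532 CPM in 30% B and 628 against 347 CPM in 50% A. For cdca7a, a chromatin factor with a value in all 5 libraries, the fractions were 5.39% against 11.03%, 14.8% against 32.9%, 7.62% against 23.4%, 15.7% against 55.2% and 11.7% against 40.5% (mean -21.6 percentage points, SE 4.78, limma adjusted p = 0.0375). Dome-type cells held the more unlabeled cdca7a in each library, from 2755 against 1947 CPM at dome to 1800 against 809 CPM in 50% B. The labeled level was lower in each library, from 157 against 241 CPM to 238 against 551 CPM. The one gene called higher was marcksl1a, a MARCKS-like actin regulator, with fractions of 95.1% against 90.8%, 93.3% against 86.9%, 98.9% against 94.7% and 95.2% against 85.3% (mean 6.21 percentage points, SE 1.56, limma adjusted p = 0.0499). Its unlabeled level was the lower one, at 53.2 against 101 CPM at dome.

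The Dome-type cells of the dome library had begun to transcribe, and a few genes held much of what they made. The 10 genes with most labeled UMIs, named by that rank after the data were seen, held 22.4% of all labeled UMIs counted. The first was marcksl1b, with 6.30% of labeled UMIs and 98.3% of its own molecules labeled. It was followed by hmgb2a and hmga1a (chromatin proteins, 24.5% and 32.6% labeled), eef1a1l1 (translation elongation, 28.2%), akap12b (95.8%), hnrnpa0b (54.0%), pnrc2 (48.6%), marcksl1a (95.1%), sall4 (57.8%) and h3f3b.1 (12.9%). Of the 2162 genes with 30 or more UMIs behind the fraction in both groups at dome, 1143 (52.9%) were below 5% labeled in Dome-type and 985 (45.6%) in other cells. Above 65% were 90 (4.16%) and 106 (4.90%).

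Dome-type cells at dome varied among themselves along pseudotime, a score that orders cells from the dome-stage root. By construction its root cells came from this cluster, and 83 Dome-type cells held the lowest value, 240. The median score was 275.5 in Dome-type against 290.7 in other cells at dome, and 283, 282, 297 and 289 against 314, 318, 330 and 323 in 30% A, 30% B, 50% A and 50% B. In quartiles of the 1130 cells at dome the labeled fraction went from 9.89% through 10.8% and 12.2% to 15.9%. The median UMIs per cell went down along the same quartiles, from 5787 through 4290 and 3052 to 2604. Over pairs with exactly 3 UMIs the labeled fraction was 9.48%, 9.99%, 11.4% and 14.5%. The level of cldnd was 1478, 623, 480 and 306 CPM, and that of ccna1 was 1093, 898, 776 and 563 CPM. The level of ved was 185, 288, 382 and 706 CPM, that of apoeb 196, 255, 338 and 526 CPM, and that of tbxta, the notochord and margin T-box gene, 8.13, 20.9, 20.0 and 78.0 CPM. These genes shaped the ordering, so the trends are a description. Injected RNA was nearly flat, at 7645, 7392, 6929 and 7222 CPM.

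**Figure D4:**
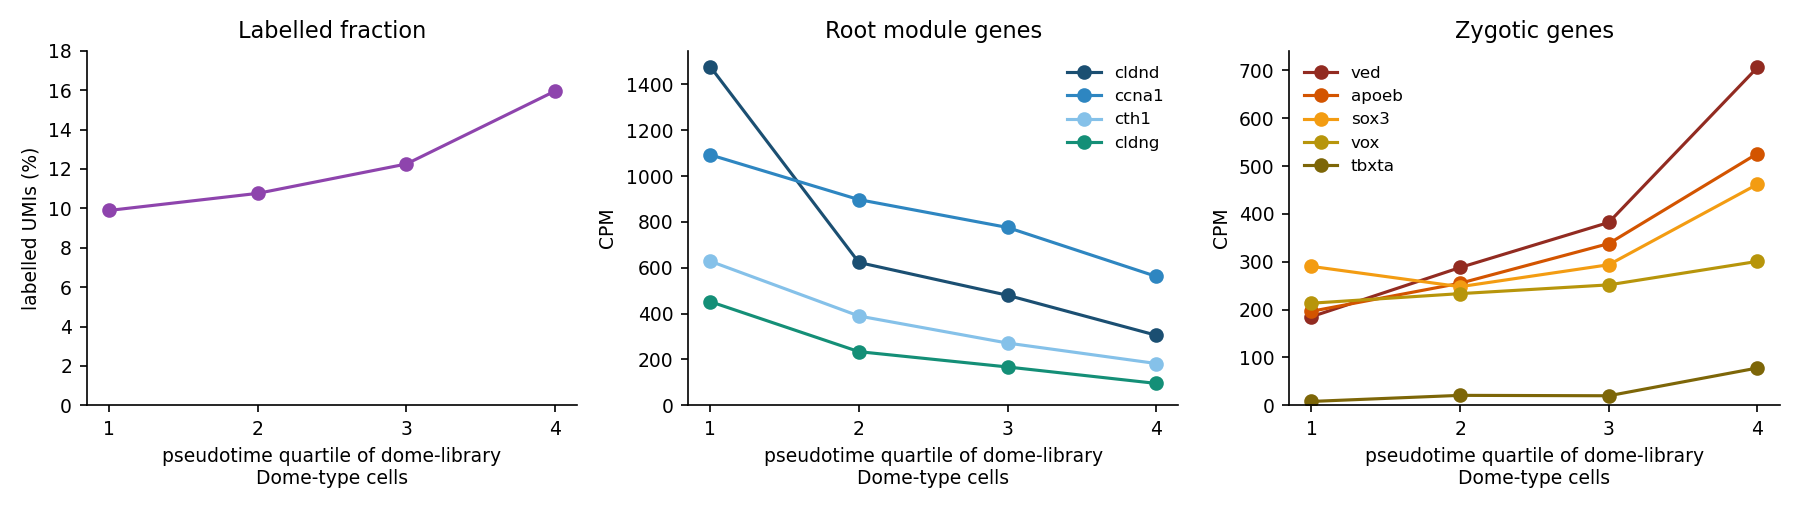
Dome-type cells of the dome library in 4 quartiles of pseudotime (283, 282, 282 and 283 cells). The labeled fraction of UMIs rises from 9.89% to 15.9%, and the 4 listed genes of the root module decline in CPM. The zygotic genes ved, apoeb, vox and tbxta end higher than they start.

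Single cells ranged widely. The labeled fraction of Dome-type cells at dome ran from 2.14% through a median of 10.97% to 33.9%. In 50% A it ran from 1.68% through a median of 33.2% to 49.6%, and in 50% B from 8.45% through 16.5% to 29.4%. Across cells it was correlated with pseudotime at r = 0.41 at dome (n = 1130), 0.42 in 30% A (n = 59), 0.57 in 30% B (n = 46), 0.46 in 50% A (n = 23) and 0.15 in 50% B (n = 17), where cells of a library share embryos and both values come from the same reads. Many Dome-type cells lay on several of the 5 developmental trajectories that the authors traced. These were traced by random walks from each end type back to root cells of this cluster. Cells near the root thus lie on several of them largely by construction, and the counts are a description. At dome 480 of 1130 (42.5%) lay on 2 or more, against 132 of 725 other cells (18.2%), and 112 lay on all 5, against 2. No trajectory held 496 Dome-type cells at dome. Their median pseudotime was 284, and that of the 480 on 2 or more was 261. In 50% A and 50% B no Dome-type cell lay on the enveloping layer or prechordal plate trajectory, where 2.43% and 1.28% (enveloping layer) and 4.37% and 5.56% (prechordal plate) of other cells lay. With 23 and 17 Dome-type cells, shares of that size could not be told from 0. On the ectoderm trajectory lay 9 of 23 (39.1%) and 12 of 17 (70.6%) Dome-type cells, against 17.3% and 13.7% of other cells.

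Dome-type cells of later stages were compared with those of dome by edgeR on the summed counts of each library (3510 genes). Cells of all stages bore this name because their total counts clustered together, and the test reads the same counts. Small differences between stages are thus partly set by the annotation, and the p-values are not independent of it. Dome had 1 library, so both comparisons with dome took their spread from the epiboly replicates, with 2 residual degrees of freedom, and the number of calls does not measure how many genes changed. Between 30% epiboly and dome 1 gene was called higher (0.0285%) and 0 lower (0%), with 62 genes at an unadjusted p under 5%. DESeq2 called 0, with 9 at that threshold. The gene called by edgeR was h2ax, a histone variant, at 13.3 CPM at dome, 276 in 30% A and 40.7 in 30% B (log2 fold change 3.50, SE 0.63, edgeR adjusted p = 0.00269). It moved with the replicate letter as well: 50% A had 193 CPM and 50% B 25.8 CPM, and in other cells it stood at 573 and 457 CPM in the A libraries and at 19.4, 62.4 and 92.6 CPM in the B libraries. With a replicate block its log2 fold change was 1.61 (edgeR adjusted p = 0.9998) and no gene was called. Without 30% A its log2 fold change was 1.62 and no gene was called, nor was any without 50% B. Without 50% A 4 were called.

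Between 50% epiboly and dome 9 genes were called higher (0.256%) and 0 lower (0%), with 249 at an unadjusted p under 5%. DESeq2 called 2 higher and 0 lower, with 77 at that threshold. Among them were zygotic regulators of the early axes. The transcription factor genes were sox3, vox, ved and eve1. At dome, 30% A, 30% B, 50% A and 50% B, sox3 stood at 309, 643, 697, 1089 and 1522 CPM (log2 fold change 2.11, SE 0.44, edgeR adjusted p = 0.0146). The level of ved was 344, 470, 585, 1019 and 1599 CPM (log2 fold change 1.95, SE 0.44, edgeR adjusted p = 0.0199). That of eve1, an even-skipped homeobox gene of the ventral margin, was 8.93, 41.5, 50.9, 158 and 284 CPM (log2 fold change 4.62, SE 0.98, edgeR adjusted p = 0.0146). In each of these genes both 50% epiboly libraries were above the dome library and, save for vox, above both 30% epiboly libraries. In the other cells, too, sox3, vox, ved and eve1 were higher in both 50% epiboly libraries than at dome. There sox3 went from 357 CPM at dome to 1500 in 50% A and 2161 in 50% B, and ved from 521 to 1362 and 2516 CPM. The Dome-type values of eve1 rest on few counts, with 41, 6, 10, 9 and 11 UMIs at dome, 30% A, 30% B, 50% A and 50% B.

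The others were cxcr4a (a chemokine receptor), apoeb and apoc1 (apolipoproteins), bambia (a decoy receptor of BMP signaling) and si.ch1073.80i24.3. The level of apoeb was 299, 394, 468, 1441 and 954 CPM in the same order (log2 fold change 2.07, SE 0.45, edgeR adjusted p = 0.0146). That of apoc1, named after its values were seen, was 42.1, 118, 127, 404 and 25.8 CPM, so that its 50% B value, from 1 UMI, lay below dome. Of the 14 blastula zygotic genes tested, 5 were called higher between 50% epiboly and dome, and 13 had a positive log2 fold change (median 1.78 against -0.02 over all genes). The 4 listed genes of the root module and the 7 oocyte and maternal regulators tested had medians of -0.19 and -0.03. As the annotation rests on total counts, levels near those of dome were favored, and these medians are a description. With a replicate block eve1, vox, sox3, apoeb and ved were also called, and cxcr4a (log2 fold change 1.66, edgeR adjusted p = 0.419), bambia (adjusted p = 0.240), si.ch1073.80i24.3 (adjusted p = 0.163) and apoc1 were not. The calls depended on single libraries: the count was 1 without 30% A, 0 without 30% B, 0 without 50% B and 34 without 50% A.

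**Figure D5:**
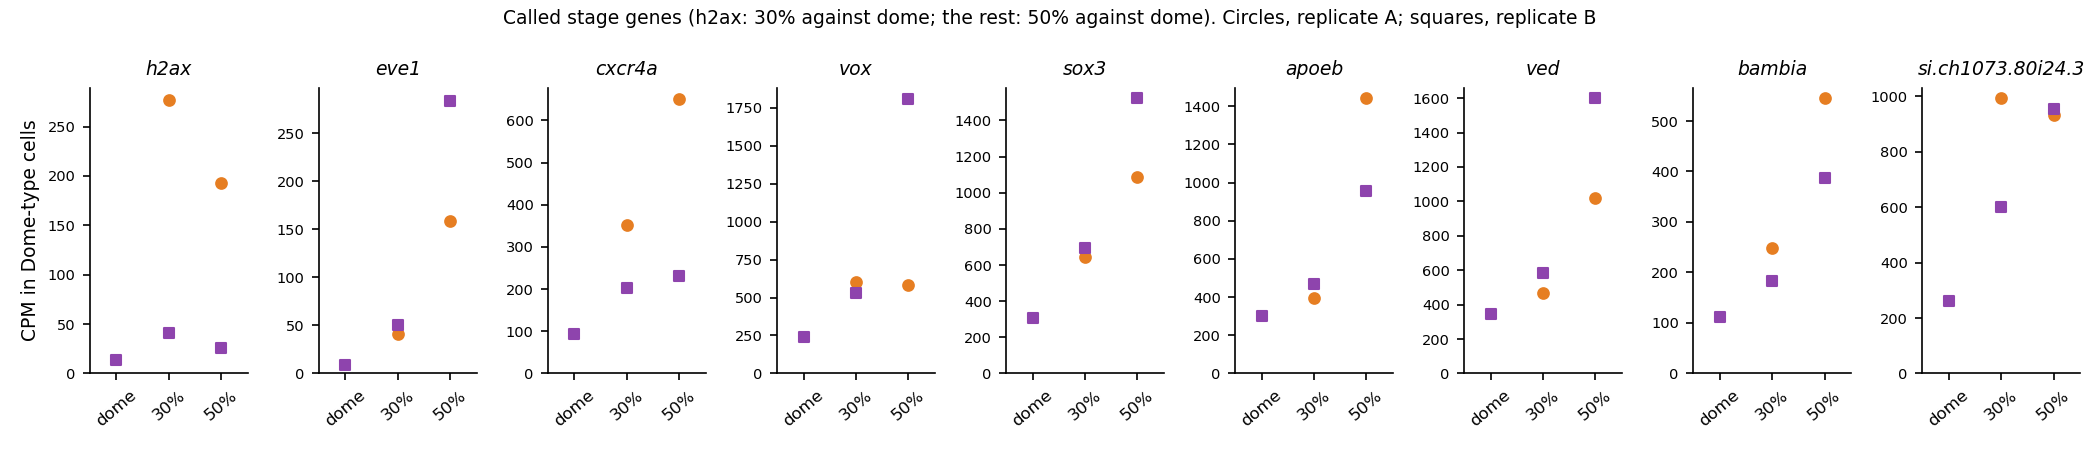
Level (CPM) in the Dome-type cells of each library for h2ax and the 8 genes called between 50% epiboly and dome whose libraries did not overlap; circles are replicate A and squares replicate B. At 50% epiboly both libraries lie above dome for all 9 genes, and h2ax is high in replicate A alone.

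From 30% to 50% epiboly edgeR called 0 genes higher (0%) and 0 lower (0%), and DESeq2 called 0, with 208 and 62 genes at an unadjusted p under 5%. The lowest p belonged to histh1l, a linker histone gene, at 159 and 285 CPM at 30% and 387 and 1238 CPM at 50% epiboly (log2 fold change 1.82, edgeR adjusted p = 0.0979). Without 50% A 30 genes were called. The labeled fraction of Dome-type cells was 19.6% ± 5.46 (SD, n = 2) at 30% and 26.3% ± 11.01 (SD, n = 2) at 50% epiboly, a difference of 6.68 percentage points (two-sided exact permutation test, p = 0.667, smallest possible p = 0.333). Within letters it was higher at 50% epiboly in both, by 10.6 percentage points in replicate A and 2.76 in replicate B. Leaving out 1 library unbalanced the letters, and the difference was then -1.10 percentage points without 50% A and 14.5 without 50% B.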

How the data were processed

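The authors deposited raw UMI counts per gene and cell, the labeled fraction of each gene in each cell (new-to-total ratio, 0 to 1, from GRAND-SLAM) and cell metadata with the cell type and a pseudotime score that the authors computed with URD. Per the study's methods, reads were processed with Drop-seq tools and Bowtie2, the clusters came from variable genes of total counts, and injected RNAs were left out of these genes. By the methods, reads were aligned to Ensembl's Zv10 annotation and GRAND-SLAM used GRCz11, the build in the submitters' notes; at which step the deposited count table was made, the sources used here do not say. Cells were taken as deposited: 15 of 8226 had under 500 genes, none of them Dome-type, and doublets were not removed. Of 20920 gene identifiers 19926 were in the name table. In the metadata 4 per-cell columns were not used.

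The labeled fraction of a group was the sum of UMIs times labeled fraction over the sum of UMIs, taken where a gene had at least 3 UMIs in a cell and at least 50 UMIs in all. Levels were CPM of summed gene counts. Ratios used log2 of CPM plus 1. edgeR 4.0.16 (quasi-likelihood, TMM, filterByExpr) compared stages, limma 3.58.1 the labeled fraction per gene, with Benjamini-Hochberg adjustment at 5%, and DESeq2 1.42.0 was an alternative. A stage with 1 library, dome always and others where a library was left out, was assumed to vary like the rest. The letters stand for replicates that the methods describe as dissociated in different ways, so a replicate block was an alternative. Across genes, the deviations of replicate A from the stage mean were correlated at r = 0.07 between 30% and 50% epiboly. The steps were tested on simulated data. Named genes were the 12 highest and 12 lowest ratios among genes of 50 or more CPM with 1 sign in every library, called stage genes of lowest adjusted p (10 at most, or the 5 of lowest p), the 8 largest called labeled differences, and the most abundant genes of each list. The members and gene lists were chosen with earlier results of these data known.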

Additional observations from a re-analysis of the deposited data

Results flagged for a closer look

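At dome the labeled fraction of Dome-type cells was 5.44 percentage points below that of the other cells (-5.44), a difference far from those of the 4 epiboly libraries, which lay between -17.5 and -15.0. Its gap to the nearest was 0.796 of the whole range of the 5 libraries, which also differ in stage. Chance sets a value apart in this way in about 1 in 20 groups.

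The difference in median UMIs per cell between Dome-type and other cells had opposite signs at dome (179) and in both 30% epiboly libraries (-714 in replicate A and -565.5 in replicate B). The difference between the stages was not tested.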

How the results depend on the processing

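The lower labeled fraction of Dome-type cells kept its direction in every library under pairs with 1 or more UMIs, pairs with exactly 3 UMIs, all genes, means over cells and the narrower set of other cells, with mean differences between -15.1 and -12.3 percentage points, and between -16.8 and -13.8 with 1 library left out. Injected RNA was between 0.38 and 0.49 higher on the log2 scale with 1 library left out, and 0.55 against the narrower set, settings chosen after seeing the data. The share at 50% minus that at 30% epiboly went from -1.10 to 0.477 percentage points over cells with 2000 or more UMIs, and lay between -4.11 and 1.92 with 1 library left out. The labeled fraction of Dome-type cells between these stages lay between -1.10 and 14.5 percentage points with 1 library left out.

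Counts of called genes moved most. For 30% epiboly against dome (1 in the main test) they were 0 with DESeq2, 2 with no filter on low counts, 0 over libraries with 20 or more Dome-type cells and 0 to 4 with 1 library left out. For 50% epiboly against dome (9) they were 2, 2, 0 and 0 to 34. For 50% against 30% epiboly (0) they were 0 to 30 with 1 library left out. For the labeled fraction per gene (94 lower and 1 higher) they were 100 and 0 with pairs of 1 or more UMIs, 58 and 0 with 100 or more UMIs, and 0 to 124 and 0 to 1 with 1 library left out. The cause was not tested, other than that fewer libraries or genes entered. Genes higher in every library were 935, and 1105 to 1551 with 1 library left out (lower: 1136, and 1411 to 1567).

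With a replicate block, in which dome was set with the B libraries, the stage tests called 0 genes for 30% epiboly against dome, 7 for 50% epiboly against dome, 5 of them also called without it, and 0 for 50% against 30% epiboly. The labeled fraction within letters was 6.68 percentage points higher at 50% epiboly on average.

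Depth limits the epiboly sums, where 3 UMIs in the Dome-type cells of 50% B stand for 77.4 CPM.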
